A study of Mus musculus with 4 samples.

Results

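The genes described here encode the subunits and assembly chaperones of the proteasome. They are the 41 of 20640 genes whose symbols begin with Psma, Psmb, Psmc, Psmd or Psmg followed by a digit, leaving out Psmb8, Psmb9 and Psmb10 of the interferon-inducible proteasome. The rule uses names alone and no measured value. It takes in 8 genes of the 20S alpha ring (Psma1 to Psma8), 7 of the 20S beta ring (Psmb1 to Psmb7), 6 ATPases of the 19S particle (Psmc1 to Psmc6), 11 other 19S subunits (Psmd1, Psmd2, Psmd3, Psmd4, Psmd6, Psmd7, Psmd8, Psmd11, Psmd12, Psmd13 and Psmd14), 3 chaperones that assemble the 19S base (Psmd5, Psmd9 and Psmd10) and 4 that assemble the 20S core (Psmg1 to Psmg4). Psmb6-ps2, by its name a pseudogene of Psmb6, and Psmc3ip, a factor of meiotic recombination, match by name only.

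The cells came from lungs of female C57BL/6 mice, aged 8 weeks, that carried tumours seeded by tail-vein injection of 150000 HKP1 cells, a mouse lung adenocarcinoma line. Irradiated mice had 4 Gy to the lung on each of 3 days (day 10 to day 12), and control mice had 0 Gy. Both groups carried tumours, so there was no tumour-free lung among the libraries used here. Lungs of 4 mice per treatment were collected 24 to 48 h after the last exposure, live cells were separated into CD45-negative and CD45-positive fractions, and each dose and fraction gave 1 droplet library made with 10x Genomics 3′ chemistry.

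The 26S proteasome is the protease that degrades most ubiquitin-tagged proteins in the cell. Its 20S core is a barrel of stacked alpha and beta rings with the active sites facing inward, and its 19S particle binds ubiquitin chains, removes them and unfolds the substrate with a ring of ATPases. Every nucleated cell needs it, and in many cells the transcription factor NRF1, the product of Nfe2l1, raises the transcription of most subunits together when proteasome activity runs short.

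Levels are given as CPM, the UMIs (counted transcript molecules) of a gene per 1000000 UMIs of all cells of that type in that library. Cells were put into types by counts of marker genes, so that each name below rests on markers alone, and 86.9% of CD45-negative and 79.5% of CD45-positive cells at 4 Gy, against 89.3% and 80.6% at 0 Gy, received a name. There were 12 types with at least 50 cells in both libraries, 4 endothelial and 8 leukocyte types. With 1 library per dose and fraction there was no test. Each interval is an exact 95% interval that covers counting error only, and not the spread between mice or libraries. In general capillary cells Cdkn1a, a p53 target that radiation is known to induce, stood at 2395 CPM at 4 Gy and 342 CPM at 0 Gy. Its levels in aerocytes were 4363 CPM at 4 Gy and 1031 CPM at 0 Gy, and in B cells 18.6 CPM at 4 Gy and 8.06 CPM at 0 Gy. Both doses therefore went the way their labels say.

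The summed level of the 41 genes differed more between cell types than between doses. It was highest in cells with the epithelial and keratin markers of the tumour gate, which here are called tumour epithelial, at 8298 CPM (7778 to 8845) at 4 Gy and 8415 CPM (8120.4 to 8717) at 0 Gy. The gate took in only 38 tumour epithelial cells at 4 Gy and 90 at 0 Gy. This type was therefore left out of the counts by dose, and its values by dose are given last, as a description. A clustering of the cells of all libraries gave a tumour epithelial-like cluster of 306 cells, more than the gate took in, and no level was taken from it. Of the 12 types with at least 50 cells in both libraries, aerocytes were highest. These large capillary cells, which line the gas exchange surface, had 5563 CPM (5435 to 5694) at 4 Gy and 6089 CPM (5966 to 6213) at 0 Gy. The other types under 50 cells were left out of this order. Among them were ciliated cells, with 5770.5 CPM (5446 to 6109.5) in 22 cells at 4 Gy and 5906 CPM (5459 to 6381) in 15 cells at 0 Gy. Neutrophils were lowest at both doses, with 2373 CPM (2306 to 2442) at 4 Gy and 2193 CPM (2087 to 2302) at 0 Gy.

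**Figure D1:**
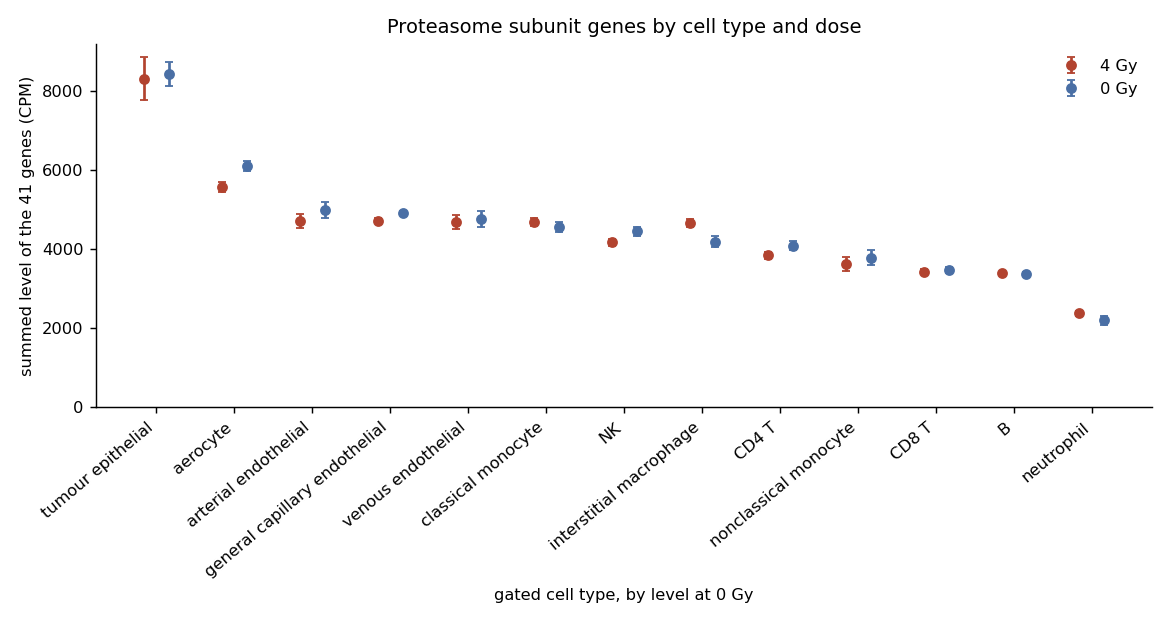
Summed level of the 41 proteasome genes (y axis, CPM) in tumour epithelial cells and the 12 compared cell types (x axis, ordered by the level at 0 Gy), at 4 Gy (left point of each pair) and 0 Gy (right point). Bars are exact Poisson 95% intervals of counting error in 1 library each. Tumour epithelial cells stand at 8298 and 8415 CPM and neutrophils at 2373 and 2193 CPM, at 4 Gy and 0 Gy.

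Between these ends the order held many ties. At 4 Gy the general capillary (4718 CPM), arterial (4707 CPM) and venous (4684 CPM) endothelial cells, classical monocytes (4679.9 CPM) and interstitial macrophages (4656 CPM) had overlapping intervals. NK cells followed with 4163 CPM, CD4 T cells with 3835 CPM and nonclassical monocytes with 3612 CPM, and the interval of nonclassical monocytes overlapped those of CD4 T cells and of CD8 T cells (3424 CPM). CD8 T cells and B cells (3382 CPM) also overlapped each other. At 0 Gy the arterial (4973 CPM), general capillary (4902 CPM) and venous (4758 CPM) cells again overlapped, while NK cells (4442 CPM) stood above interstitial macrophages (4176 CPM). Those 2 types were in the other order at 4 Gy.

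Cells of the same library can be compared without a difference in handling. Within the CD45-negative libraries the summed level of tumour epithelial cells was 1.76 times that of general capillary cells at 4 Gy (1.65 to 1.88) and 1.72 times at 0 Gy (1.65 to 1.78). At 4 Gy 23 of 38 measured members were at least 1.5-fold higher in tumour epithelial cells, where 18.9% of all genes were, and at 0 Gy 19 of 39 were, where 18.7% of all genes were. Here a gene counts as measured with at least 50 UMIs over both groups compared, and its fold is taken on CPM + 5. In the other direction 4 of 38 members were at least 1.5-fold lower at 4 Gy, against 55.2% of all genes, and 1 of 39 at 0 Gy, against 50.9%. Tumour epithelial cells held 113998 UMIs at 4 Gy, where general capillary cells held 6265319. Genes thus met the minimum count mostly through capillary cells. The median log2 ratio over all genes was -0.84 at 4 Gy and -0.61 at 0 Gy. The shares over all genes carry this limit and were not matched to the abundance of the members.

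Among the members, and chosen after their values were seen, Psma5 and Psmd10 had some of the widest gaps between tumour epithelial and general capillary cells. Psma5, an alpha ring subunit, had 614 CPM in tumour epithelial cells and 113 CPM in general capillary cells at 4 Gy, a ratio of 5.43 (4.18 to 6.94), and 409 CPM and 117 CPM in the same order at 0 Gy, a ratio of 3.49 (2.91 to 4.15). Psmd10, also known as gankyrin, is a base chaperone described as an oncoprotein in liver. It had 105 CPM in tumour epithelial cells and 25.7 CPM in general capillary cells at 4 Gy, a ratio of 4.10 (2.07 to 7.36). At 0 Gy it had 142 CPM and 24.6 CPM, a ratio of 5.77 (4.16 to 7.87). Its tumour value at 4 Gy rests on 12 UMIs. Psma3 went the other way at both doses, with 35.1 CPM in tumour epithelial and 103 CPM in general capillary cells at 4 Gy, and 40.9 CPM and 105 CPM at 0 Gy. The tumour value at 4 Gy rests on 4 UMIs.

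Aerocytes exceeded general capillary cells by a ratio of 1.18 (1.15 to 1.21) at 4 Gy and 1.24 (1.21 to 1.27) at 0 Gy in the summed level. This difference was spread thinly over the members. At 4 Gy 29 of 38 measured members were higher in aerocytes, but only 4 of them were at least 1.5-fold higher (8.23% of all genes), and at 0 Gy 5 of 39 were (9.24% of all genes). At 4 Gy 0 members, and at 0 Gy 1 member, stood at least 1.5-fold lower in aerocytes, against 15.6% and 17.2% of all genes.

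Among leukocytes of the same libraries, neutrophils had 0.702 times (0.680 to 0.723) the summed level of B cells at 4 Gy and 0.652 times (0.620 to 0.686) at 0 Gy. The median log2 ratio over all measured genes was also below 0. It was -0.37 at 4 Gy and -0.35 at 0 Gy, where that of the members was -0.46 and -0.61. The number of members at least 1.5-fold lower in neutrophils was 15 of 38 at 4 Gy, where 41.2% of all genes were, and 20 of 38 at 0 Gy, where 42.1% were. Their share at 4 Gy was near that background. None of the 38 was at least 1.5-fold higher at either dose, where 21.1% of all genes were at 4 Gy and 22.1% at 0 Gy. NK cells exceeded B cells by 1.23 (1.2 to 1.26) at 4 Gy and 1.32 (1.28 to 1.36) at 0 Gy, with 3 and 9 of 38 members at least 1.5-fold higher against 20.3% of all genes at each dose and 0 members at least 1.5-fold lower against 14.5% and 14.6%.

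The comparison of 4 Gy with 0 Gy found at most small differences in the summed level. A gene is counted as higher at 4 Gy where its ratio, taken on CPM + 5, was at least 25% above 1, and as lower where it was at least 20% below 1, which is the same fold in the other direction. The ratio of the summed level, 4 Gy over 0 Gy, lay between 0.914 in aerocytes and 1.11 in interstitial macrophages. Its interval held or reached 1 in arterial and venous cells, B cells, CD8 T cells, and classical and nonclassical monocytes. The members measured numbered 25 in nonclassical monocytes and 39 in general capillary and B cells, and Psma8, a testis-specific alpha subunit with 50 UMIs in all cells together, and Psmb6-ps2 were measured in no type. The median log2 ratio of the members lay between -0.12 in aerocytes and 0.19 in interstitial macrophages. Over all genes measured in the same types the median lay between -0.04 in CD4 T cells and 0.06 in NK cells. The 4 endothelial types share the same 2 libraries, as do the 8 leukocyte types, so their values are given side by side and are not independent of each other.

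**Figure D2:**
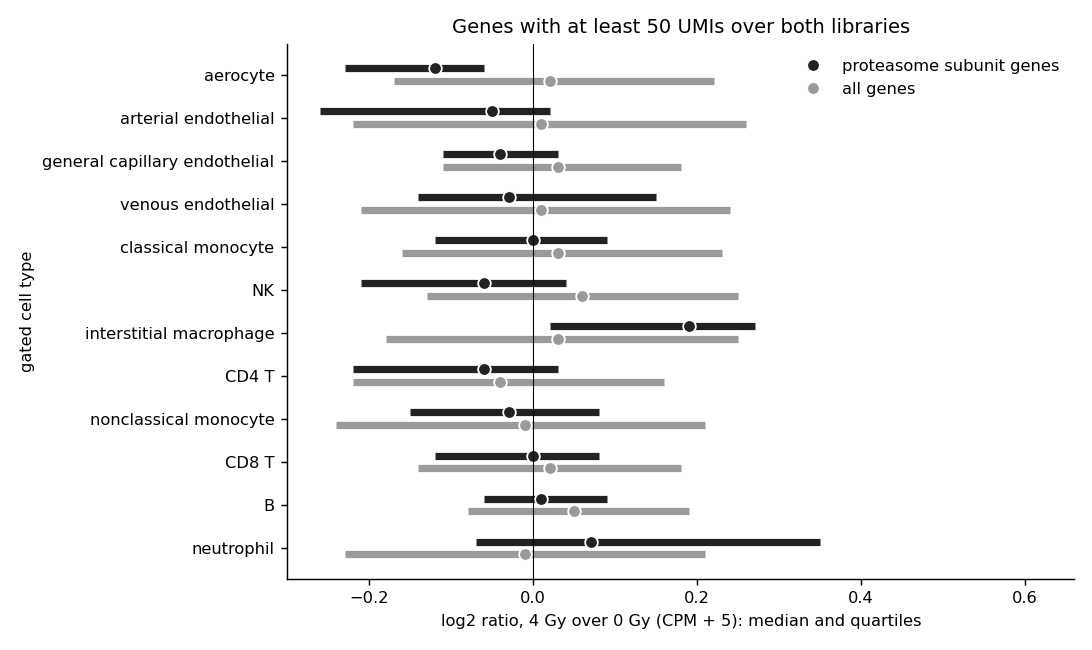
Median (point) and quartiles (bar) of the log2 ratio, 4 Gy over 0 Gy on CPM + 5 (x axis), of the measured proteasome genes (black, upper) and of all measured genes (grey, lower) in each gated cell type (y axis). The black medians run between -0.12 in aerocytes and 0.19 in interstitial macrophages, and that of B cells is at 0.01.

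In general capillary endothelial cells, the largest endothelial type with 2818 cells at 4 Gy and 4054 at 0 Gy, the genes of the 20S core were slightly lower after irradiation and those of the 19S particle were level. The summed 20S core was at 2582 CPM at 4 Gy and 2759.6 CPM at 0 Gy, a ratio of 0.936 (0.917 to 0.955), and 11 of its 14 measured genes were below a ratio of 1. The 19S particle was at 1825 CPM at 4 Gy and 1819 CPM at 0 Gy, a ratio of 1.0 (0.979 to 1.03), with 9 of 17 genes above and 8 below. With a median-of-ratios scaling in place of the total these ratios were 0.908 for the 20S core and 0.974 for the 19S particle. For all 41 genes together the level was 4718 CPM at 4 Gy and 4902 CPM at 0 Gy, a ratio of 0.962 (0.948 to 0.977).

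Few single members of general capillary cells differed with dose. Of the 39 measured, 0 were at least 25% higher, where 10.4% of all genes were, and 1 was at least 20% lower, where 6.20% were. That member was Psmc3ip, which is no proteasome subunit, with 4.15 CPM at 4 Gy and 7.12 CPM at 0 Gy (ratio 0.583, 0.351 to 0.945). The share over all genes was not matched to the abundance of the members. Next lowest were Psmg4, a core assembly chaperone, with 71.5 CPM at 4 Gy and 85.3 CPM at 0 Gy, and the alpha subunit Psma2, with 221 CPM at 4 Gy and 256 CPM at 0 Gy. The beta subunit Psmb2 had 213 CPM at 4 Gy and 242 CPM at 0 Gy. These 3 ratios were 0.838, 0.863 and 0.882, and each interval lay below 1.

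At the upper end of the same cells stood 4 genes of the 19S particle. Psmd8, a lid subunit, had 106 CPM at 4 Gy and 92.4 CPM at 0 Gy, a ratio of 1.14 (1.03 to 1.27). The ATPase Psmc4 had 84.0 CPM at 4 Gy and 74.6 CPM at 0 Gy, a ratio of 1.13 (0.998 to 1.27). Psmd2, the base scaffold, had 72.3 CPM at 4 Gy and 64.6 CPM at 0 Gy, a ratio of 1.12 (0.983 to 1.27), and Psmd3, a lid subunit, had 74.2 CPM at 4 Gy and 70.0 CPM at 0 Gy, a ratio of 1.06 (0.934 to 1.2). Among these only the interval of Psmd8 lay above 1. The summed markers of the general capillary gate were also lower at 4 Gy, at 7416 CPM against 9305 CPM at 0 Gy, as were 10 cycling markers, at 427 CPM against 580 CPM at 0 Gy. The part of the gate markers in the result was not tested. Without cells holding a Mki67 or Top2a UMI the ratio of all 41 genes was 0.962. Cells with a UMI of Lyve1, a hyaluronan receptor gene, numbered 2184 of 2818 at 4 Gy and 2088 of 4054 at 0 Gy, and the ratio was 0.956 in cells with such a UMI and 0.970 in cells without one, a split chosen after seeing the data.

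**Figure D3:**
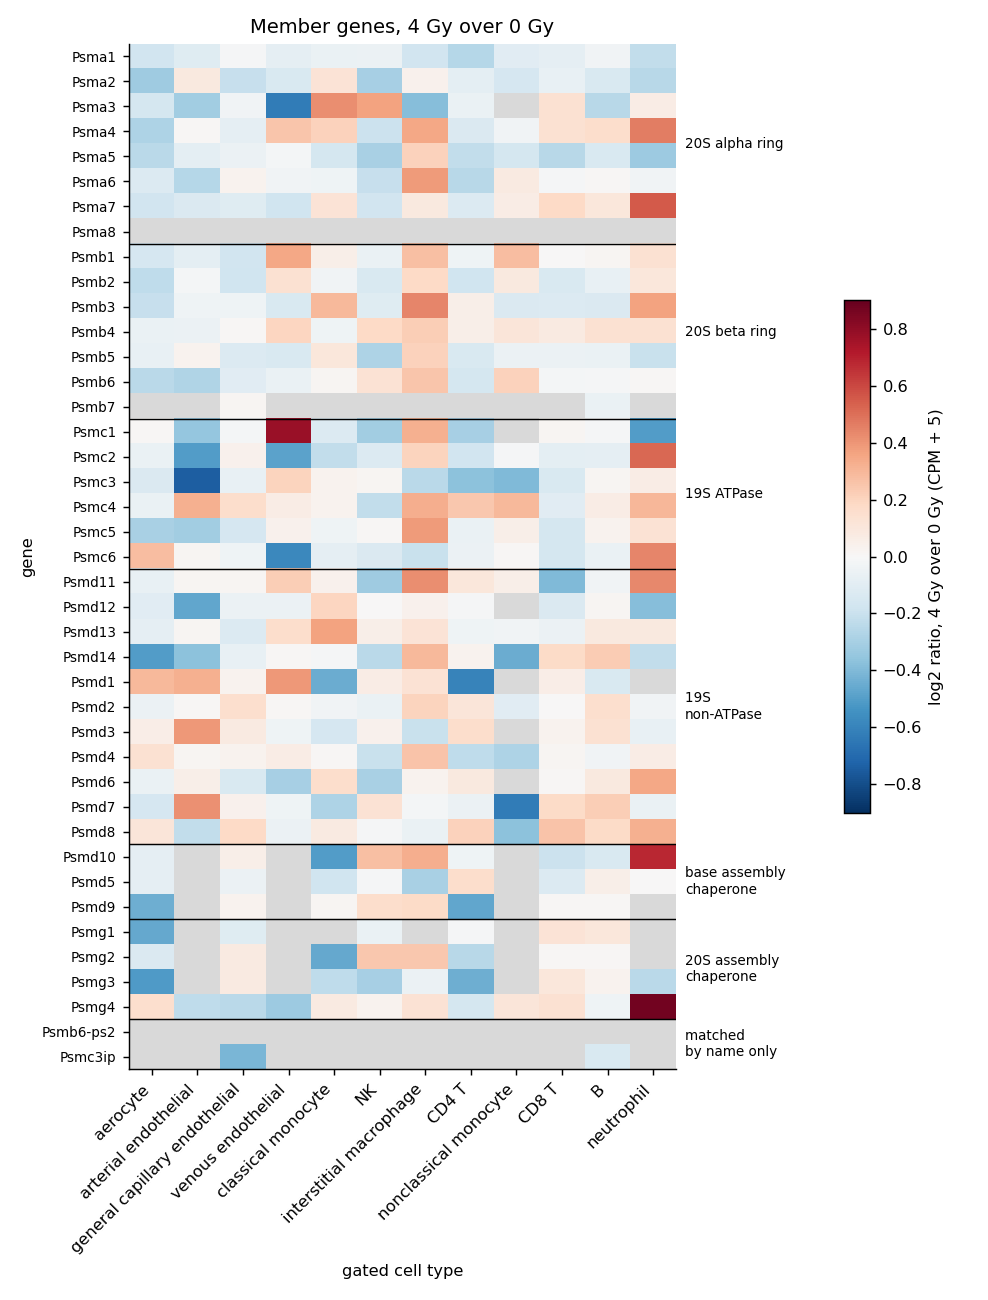
The log2 ratio, 4 Gy over 0 Gy on CPM + 5 (colour, red higher and blue lower at 4 Gy), of each of the 41 genes (rows, grouped by role) in each gated cell type (columns). Grey marks genes under 50 UMIs in a type. In the aerocyte column all 13 coloured alpha and beta ring genes are blue, and the interstitial macrophage column has 27 measured genes above 0 and 9 below.

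Aerocytes had the lowest summed ratio of the 12 types and the same split between core and cap. With 327 cells at 4 Gy and 473 at 0 Gy, the summed level was 5563 CPM at 4 Gy and 6089 CPM at 0 Gy, a ratio of 0.914 (0.886 to 0.942). The 20S core was at 2978 CPM at 4 Gy and 3397 CPM at 0 Gy, a ratio of 0.877 (0.841 to 0.914), and 13 of its 13 measured genes were below a ratio of 1. The alpha ring gave 0.859 (0.807 to 0.914) and the beta ring 0.892 (0.843 to 0.944). The 19S particle was at 2265 CPM at 4 Gy and 2327 CPM at 0 Gy, a ratio of 0.973 (0.926 to 1.02), with 6 genes above and 11 below. Over the alternatives in processing the 20S ratio stayed between 0.864 and 0.896 and the 19S ratio between 0.952 and 0.985. The markers of the aerocyte gate summed to 11722 CPM at 4 Gy and 14715 CPM at 0 Gy, and whether this bears on the result was not tested. Leukocyte markers were near 0 in these cells, at 2.34 CPM at 4 Gy and 3.87 CPM at 0 Gy.

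No member of aerocytes was at least 25% higher, where 16.7% of all genes were, and 4 of 37 were at least 20% lower, where 11.2% were. These 4 were Psmg3, Psmd14, Psmg1 and Psmd9. Psmd14, the metalloprotease of the lid that removes ubiquitin chains before degradation, had 59.2 CPM at 4 Gy and 85.9 CPM at 0 Gy, a ratio of 0.689 (0.513 to 0.921). The core chaperones Psmg3, with 34.3 CPM at 4 Gy and 51.0 CPM at 0 Gy, and Psmg1, with 20.3 CPM at 4 Gy and 29.7 CPM at 0 Gy, had ratios of 0.672 (0.454 to 0.984) and 0.682 (0.405 to 1.13). The base chaperone Psmd9 had 55.3 CPM at 4 Gy and 76.8 CPM at 0 Gy, a ratio of 0.720 (0.529 to 0.974). Except for Psmg1 each of these intervals lay below 1. The 4 highest ratios, of Psmd1 (119 CPM at 4 Gy, 96.9 CPM at 0 Gy), Psmc6 (131 CPM at 4 Gy, 107 CPM at 0 Gy), Psmg4 (61.5 CPM at 4 Gy, 54.9 CPM at 0 Gy) and Psmd4 (180 CPM at 4 Gy, 163 CPM at 0 Gy), had intervals that held 1. Psmd4 is a ubiquitin receptor and Psmd1 a scaffold of the base.

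In the smaller endothelial types the counts were lower and the intervals wider. Arterial cells had a summed level of 4707 CPM at 4 Gy and 4973 CPM at 0 Gy, a ratio of 0.947 (0.895 to 1.0). That ratio was 0.976 as a mean over cells and 0.997 in cells named by clustering. Of 31 measured members 3 were at least 25% higher (20.1% of all genes) and 5 at least 20% lower (16.1%), and 3 of those 5 were ATPases. The ATPase Psmc3 was lowest, with 89.7 CPM at 4 Gy and 153 CPM at 0 Gy, a ratio of 0.586 (0.401 to 0.852), on 51 and 71 UMIs. The 6 ATPases together gave 0.808 (0.687 to 0.951), while the other 19S subunits gave 1.04 (0.931 to 1.16). Cycling markers in arterial cells stood at 288 CPM at 4 Gy and 547 CPM at 0 Gy, and without cells holding a Mki67 or Top2a UMI the summed ratio was 0.940.

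Venous cells had 4684 CPM at 4 Gy and 4758 CPM at 0 Gy, a ratio of 0.985 (0.930 to 1.04), which was 1.05 in cells named by clustering. At least 25% higher were 3 of 31 members (19% of all genes), and at least 20% lower were 4 (15.7%). The alpha subunit Psma3 had 76.9 CPM at 4 Gy and 122 CPM at 0 Gy, a ratio of 0.630 (0.414 to 0.953), on 43 and 57 UMIs. The ATPase Psmc1 had 80.5 CPM at 4 Gy and 44.9 CPM at 0 Gy, a ratio of 1.79 (1.04 to 3.17), on 45 and 21 UMIs. Both counts in each of these genes were small.

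**Figure D4:**
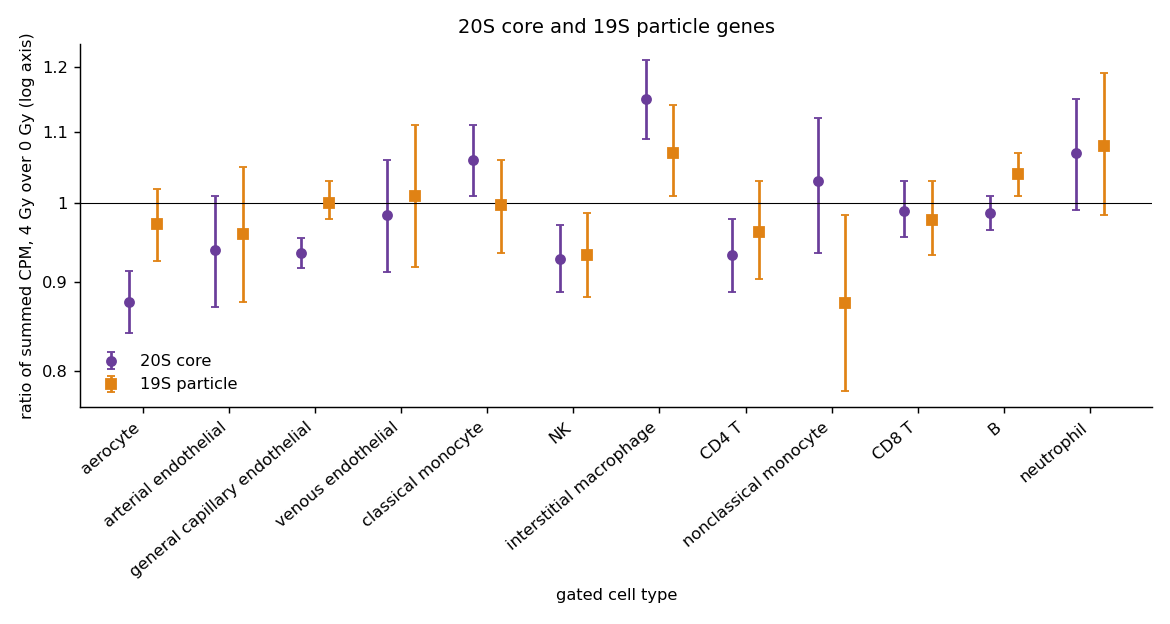
Ratio of the summed CPM, 4 Gy over 0 Gy (y axis, log scale), of the 20S core genes (circles) and the 19S particle genes (squares) in each gated cell type (x axis). Bars are exact 95% intervals of counting error. The 20S ratio is 0.877 in aerocytes and 0.936 in general capillary cells, where the 19S ratios are 0.973 and 1.0, and in interstitial macrophages the 20S ratio is 1.15 and the 19S ratio 1.07.

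B cells, the largest type with 3259 cells at 4 Gy and 2218 at 0 Gy, had 3382 CPM at 4 Gy and 3363 CPM at 0 Gy, a ratio of 1.01 (0.989 to 1.02). Of 39 measured members 0 were at least 25% higher, where 10.00% of all genes were, and 0 at least 20% lower, where 3.76% were. The 20S core gave 0.987 (0.965 to 1.01) and the 19S particle 1.04 (1.01 to 1.07). Cells were shallower at 4 Gy, with a median of 2248 UMIs per cell against 2764 at 0 Gy, and after each cell was drawn down to 1000 UMIs the summed ratio was 0.958. With the median-of-ratios scaling it was 0.962, so the side of 1 on which it falls depends on the scaling.

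Within B cells the 4 highest ratios were those of 3 lid subunits and an alpha subunit. Psmd14 had 58.5 CPM at 4 Gy and 49.2 CPM at 0 Gy, a ratio of 1.19 (1.04 to 1.36). Psmd7, the partner of Psmd14 in the lid, had 108 CPM at 4 Gy and 92.3 CPM at 0 Gy, a ratio of 1.17 (1.06 to 1.30). Psmd8 had 116 CPM at 4 Gy and 103 CPM at 0 Gy, a ratio of 1.13, and Psma4 had 95.8 CPM at 4 Gy and 85.3 CPM at 0 Gy, a ratio of 1.12. All 4 intervals lay above 1. The lowest was the alpha subunit Psma3, with 48.9 CPM at 4 Gy and 59.3 CPM at 0 Gy, a ratio of 0.825 (0.721 to 0.944), followed by the scaffold Psmd1 at 0.896 (0.759 to 1.06), Psma5 at 0.903 (0.806 to 1.01) and Psma2 at 0.906 (0.843 to 0.975). These last 3 ratios were nearly the same, and of them only the interval of Psma2 lay below 1.

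CD8 T cells had 3424 CPM at 4 Gy and 3465 CPM at 0 Gy, a ratio of 0.988 (0.962 to 1.02), with 0 of 37 members at least 25% higher (11.9% of all genes) and 1 at least 20% lower (9.02%). That member was Psmd11, a lid subunit, with 79.3 CPM at 4 Gy and 106 CPM at 0 Gy, a ratio of 0.747 (0.631 to 0.885). Psma5 came next with 74.5 CPM at 4 Gy and 89.5 CPM at 0 Gy, a ratio of 0.832 (0.696 to 0.997), and Psmd10 (0.860, 0.649 to 1.15) and Psmc6 (0.887, 0.730 to 1.08) had intervals that held 1. The highest were Psmd8, with 103 CPM at 4 Gy and 84.9 CPM at 0 Gy and a ratio of 1.21 (1.02 to 1.44), and Psma7, with 236 CPM at 4 Gy and 208 CPM at 0 Gy and a ratio of 1.13 (1.02 to 1.27). Psmd14 (1.14, 0.922 to 1.41) and Psmd7 (1.13, 0.956 to 1.35) followed. Median depth was 3649 UMIs per cell at 4 Gy and 4916 at 0 Gy, and at 1000 UMIs per cell the summed ratio was 0.956. Cycling markers stood at 212 CPM at 4 Gy and 384 CPM at 0 Gy, and without cells holding a Mki67 or Top2a UMI the ratio was 0.979.

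CD4 T and NK cells were lower in the summed level at 4 Gy. CD4 T cells had 3835 CPM at 4 Gy and 4083 CPM at 0 Gy, a ratio of 0.939 (0.905 to 0.974). In them 0 of 37 members were at least 25% higher (12.0% of all genes) and 4 at least 20% lower (14.8%). By count this is no more than other genes showed. The scaffold Psmd1 was lowest, with 33.1 CPM at 4 Gy and 52.7 CPM at 0 Gy, a ratio of 0.628 (0.432 to 0.911). The 20S core gave 0.933 (0.889 to 0.979) and the 19S particle 0.963 (0.904 to 1.03), and at 1000 UMIs per cell the summed ratio was 0.902.

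NK cells had 4163 CPM at 4 Gy and 4442 CPM at 0 Gy, a ratio of 0.937 (0.906 to 0.969). The alpha ring was lowest among the groups, with 1009 CPM at 4 Gy and 1145 CPM at 0 Gy, a ratio of 0.881 (0.823 to 0.942). Only 1 of 37 members, Psma3, was at least 25% higher (18.8% of all genes) and 0 were at least 20% lower (9.99%). The scaling to a median of ratios gave 0.896 for the summed level. NK cells were also shallower at 4 Gy, with a median of 2127 UMIs per cell against 2889 at 0 Gy.

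Neutrophils had 2373 CPM at 4 Gy and 2193 CPM at 0 Gy, a ratio of 1.08 (1.02 to 1.15), in 810 cells at 4 Gy and 282 at 0 Gy. The direction depended on how neutrophils were delimited: in 2 neutrophil-like clusters of 546 and 1017 cells the ratio was 0.948. At least 25% higher were 9 of 33 measured members, where 16.6% of all genes were, and at least 20% lower were 3, where 16.8% were. Psmg4 was the highest, with 26.6 CPM at 4 Gy and 12.2 CPM at 0 Gy, a ratio of 2.17 (1.06 to 5.0), but on 53 and 9 UMIs. Psma7, chosen after its values were seen, had 196 CPM at 4 Gy and 132 CPM at 0 Gy, a ratio of 1.49 (1.19 to 1.88). Gate markers of neutrophils summed to 105996 CPM at 4 Gy and 84559 CPM at 0 Gy, and their part in the result was not tested. Of the 9 members, the intervals of Psmg4, Psma7 and Psmb3 lay above 1.

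Interstitial macrophages had the highest summed ratio, with 4656 CPM at 4 Gy and 4176 CPM at 0 Gy, a ratio of 1.11 (1.07 to 1.16), in 202 cells at 4 Gy and 86 at 0 Gy. Both parts of the proteasome were higher: the 20S core was at 2719 CPM at 4 Gy and 2370.4 CPM at 0 Gy, a ratio of 1.15 (1.09 to 1.21), and the 19S particle at 1702 CPM at 4 Gy and 1585 CPM at 0 Gy, a ratio of 1.07 (1.01 to 1.14). The beta ring gave 1.2 (1.12 to 1.29) and the alpha ring 1.08 (1.0 to 1.17). At least 25% higher were 7 of 36 members, close to the 18.8% of all genes, and 1 was at least 20% lower, against 13.6%. No member passed 1.5-fold. Of members chosen after their values were seen, Psmb3 had 265 CPM at 4 Gy and 195 CPM at 0 Gy, a ratio of 1.36 (1.14 to 1.63), and Psmd11 had 119.9 CPM at 4 Gy and 88.7 CPM at 0 Gy, a ratio of 1.35 (1.04 to 1.77). Cycling markers were lower in these cells, at 123 CPM at 4 Gy against 593 CPM at 0 Gy. Without cells holding a Mki67 or Top2a UMI the summed ratio was still 1.11.

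Monocytes showed less. Classical monocytes had 4679.9 CPM at 4 Gy and 4542 CPM at 0 Gy, a ratio of 1.03 (0.994 to 1.07), with 2 of 36 members at least 25% higher (16.5% of all genes) and 3 at least 20% lower (11.6%). Nonclassical monocytes had 3612 CPM at 4 Gy and 3775 CPM at 0 Gy, a ratio of 0.957 (0.892 to 1.03), with 0 of 25 at least 25% higher (16.2%) and 4 at least 20% lower (18.8%). In nonclassical monocytes the lid subunit Psmd7 had 87.6 CPM at 4 Gy and 138 CPM at 0 Gy, a ratio of 0.634 (0.413 to 0.965), on 41 and 56 UMIs. Their 19S subunits other than the ATPases gave 0.836 (0.727 to 0.962) together, and the 20S core gave 1.03 (0.936 to 1.12).

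The active sites of the core lie in Psmb5 (chymotrypsin-like, the main target of bortezomib; chromosome 14, 54614120 to 54617995), Psmb6 (caspase-like; chromosome 11, 70525324 to 70527858) and Psmb7 (trypsin-like; chromosome 2, 38588046 to 38643952). Psmd14 lies on chromosome 2, 61711694 to 61800376. All positions are RefSeq's on GRCm38.p6, the assembly also named mm10, which is the build in the submitters' processing notes. The core promoters of Psmb5, Psmb6 and Psmd9 are shown because they hold, just before the start site, the letters TGACNNNGC of an antioxidant response element, the kind of element through which NRF1 acts on proteasome genes. Each line gives the 100 bases before the RefSeq start site, read 5′ to 3′ on the gene's strand, with the motif in capitals.

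Psmb5 (chr14:54617996-54618095, minus strand): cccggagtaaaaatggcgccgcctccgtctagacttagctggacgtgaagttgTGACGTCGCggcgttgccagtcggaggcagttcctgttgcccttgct

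Psmb6 (chr11:70525257-70525356, plus strand): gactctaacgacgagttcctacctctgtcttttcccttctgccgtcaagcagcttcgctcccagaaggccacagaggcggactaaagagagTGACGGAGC

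Psmd9 (chr5:123228090-123228189, plus strand): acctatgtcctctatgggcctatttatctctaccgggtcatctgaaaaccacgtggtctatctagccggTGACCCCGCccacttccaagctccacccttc

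The motif starts 47 bases before the start site of Psmb5, 9 before that of Psmb6 and 31 before that of Psmd9. For Psmb6 the start site is the one of RefSeq's promoter table, which lies inside the gene span given above, so that 33 of the bases shown, the motif among them, fall within that span. Searched on both strands of the window of 250 bases before to 50 bases after the start, it was found in 5 of the 32 members that RefSeq's promoter table holds (15.6%), the other two being Psmc6 and Psmd12, and in 14.0% of all 27025 genes of the table. The members thus held it about as often as other genes. A match is a string of letters in this window, and no binding was measured.

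Psmb5 differed little with dose. It had 171 CPM at 4 Gy and 187 CPM at 0 Gy in general capillary cells (ratio 0.915, 0.845 to 0.991), 266 CPM at 4 Gy and 279 CPM at 0 Gy in aerocytes (0.952, 0.824 to 1.1), 122 CPM at 4 Gy and 127 CPM at 0 Gy in B cells (0.957, 0.876 to 1.05) and 127 CPM at 4 Gy and 132 CPM at 0 Gy in CD8 T cells (0.964, 0.836 to 1.11). Over the 12 types its log2 ratio lay between -0.28 in NK cells and 0.21 in interstitial macrophages. Among those named, the intervals of general capillary cells and of NK cells (0.821, 0.693 to 0.974) lay below 1.

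Psmb6 had 237 CPM at 4 Gy and 254 CPM at 0 Gy in general capillary cells (0.932, 0.871 to 0.998) and 281 CPM at 4 Gy and 333 CPM at 0 Gy in aerocytes (0.844, 0.736 to 0.967). In B cells it had 151 CPM at 4 Gy and 152 CPM at 0 Gy (0.990, 0.914 to 1.07), and in CD8 T cells 139 CPM at 4 Gy and 141 CPM at 0 Gy (0.989, 0.862 to 1.14). Interstitial macrophages had 305 CPM at 4 Gy and 255 CPM at 0 Gy (1.2, 1.02 to 1.40). Among these named types it was thus lower at 4 Gy in both capillary types, level in B and CD8 T cells, and higher in macrophages. Over the 12 types its log2 ratio lay between -0.27 in arterial cells and 0.25 in interstitial macrophages, with 7 types below 0 and 5 above. Reads of Psmb6 and its pseudogene Psmb6-ps2 may have been split between them, and Psmb6-ps2 had 3.03 CPM at 4 Gy and 2.59 CPM at 0 Gy in general capillary cells.

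Psmb7 gave too few UMIs to be followed outside general capillary and B cells. It had 14.0 CPM at 4 Gy and 13.7 CPM at 0 Gy in general capillary cells (1.02, 0.763 to 1.37) and 6.74 CPM at 4 Gy and 7.24 CPM at 0 Gy in B cells (0.930, 0.633 to 1.37), so that no difference was detectable at this depth. Psmd14 had 49.3 CPM at 4 Gy and 51.9 CPM at 0 Gy in general capillary cells (0.95, 0.816 to 1.1). Its log2 ratio was lowest in aerocytes, at -0.50, and highest in interstitial macrophages, at 0.29, where the interval held 1 (1.24, 0.897 to 1.73).

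Among the other rings, Psma1 and Psmb4, chosen after their values were seen, kept within narrow bounds. Psma1 had 179 CPM at 4 Gy and 181 CPM at 0 Gy in general capillary cells, 197 CPM at 4 Gy and 223 CPM at 0 Gy in aerocytes and 141 CPM at 4 Gy and 144 CPM at 0 Gy in B cells. Its log2 ratio lay between -0.26 in CD4 T cells and -0.01 in general capillary cells over the 12 types. Psmb4 lay between -0.06 in aerocytes and 0.22 in interstitial macrophages. The spread was wider for Psmc1, a scarcer gene, between -0.50 in neutrophils and 0.78 in venous cells.

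Of the other alpha ring genes, Psma2 lay between -0.32 in aerocytes and 0.12 in classical monocytes, Psma4 between -0.28 in aerocytes and 0.46 in neutrophils, and Psma6 between -0.26 in arterial cells and 0.38 in interstitial macrophages. Psma7 reached 0.55 in neutrophils and was lowest in venous cells, at -0.18. Among beta ring genes without an active site, Psmb1 lay between -0.17 in general capillary and 0.35 in venous cells, Psmb2 between -0.23 in aerocytes and 0.18 in interstitial macrophages, and Psmb3 between -0.21 in aerocytes and 0.44 in interstitial macrophages. Psma3 ranged more widely, between -0.63 in venous cells and 0.42 in classical monocytes, and Psma5 between -0.33 in neutrophils and 0.21 in interstitial macrophages.

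Among the ATPases, Psmc2 lay between -0.50 in arterial cells and 0.52 in neutrophils, Psmc4 between -0.22 in NK cells and 0.33 in interstitial macrophages, and Psmc5 between -0.31 in arterial cells and 0.38 in interstitial macrophages. Of the 19S subunits without ATPase activity, Psmd2 kept the narrowest range of those named here, between -0.10 in nonclassical monocytes and 0.20 in interstitial macrophages. Psmd13, a lid subunit, lay between -0.12 in general capillary cells and 0.36 in classical monocytes, and Psmd4 between -0.28 in nonclassical monocytes and 0.26 in interstitial macrophages. The ranges of Psmd3 (-0.20 to 0.39), Psmd6 (-0.30 to 0.35) and Psmd12 (-0.47 to 0.19) were wider. Each of these 19S genes was above 0 in some types and below 0 in others. Among the chaperones, Psmg3 lay between -0.51 in aerocytes and 0.10 in CD8 T cells, Psmg1 between -0.46 in aerocytes and 0.12 in CD8 T cells, and Psmd5 between -0.29 in interstitial macrophages and 0.16 in CD4 T cells.

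The interferon-inducible genes that the rule leaves out were lower at 4 Gy in both capillary types, with ratios below those of Psmb5 and Psmb6. In general capillary cells Psmb8 had 441 CPM at 4 Gy and 538 CPM at 0 Gy, a ratio of 0.820 (0.781 to 0.860). Psmb9 had 332 CPM at 4 Gy and 424 CPM at 0 Gy, a ratio of 0.783 (0.740 to 0.827), and Psmb10 had 311 CPM at 4 Gy and 348 CPM at 0 Gy, a ratio of 0.893 (0.842 to 0.947). The interval of Psmb9 lay below those of Psmb5 and Psmb6, that of Psmb8 lay below that of Psmb6 and overlapped that of Psmb5, and that of Psmb10 overlapped both. In aerocytes 3 of 3 were at least 20% lower, where 11.2% of all genes were, at ratios of 0.753 (0.669 to 0.848), 0.774 (0.658 to 0.910) and 0.680 (0.591 to 0.781) for Psmb8, Psmb9 and Psmb10. In B cells and in CD8 T cells 0 of 3 passed either threshold, which 10.00% (higher) and 3.76% (lower) of all genes did in B cells and 11.9% and 9.02% in CD8 T cells. In interstitial macrophages 2 of 3 were at least 25% higher, where 18.8% of all genes were, and Psmb9 passed neither threshold. The 2 were Psmb8, at 736 CPM at 4 Gy and 529 CPM at 0 Gy (a ratio of 1.39, with an interval above 1), and Psmb10, at 263 CPM at 4 Gy and 208 CPM at 0 Gy (1.26, 1.06 to 1.5).

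**Figure D5:**
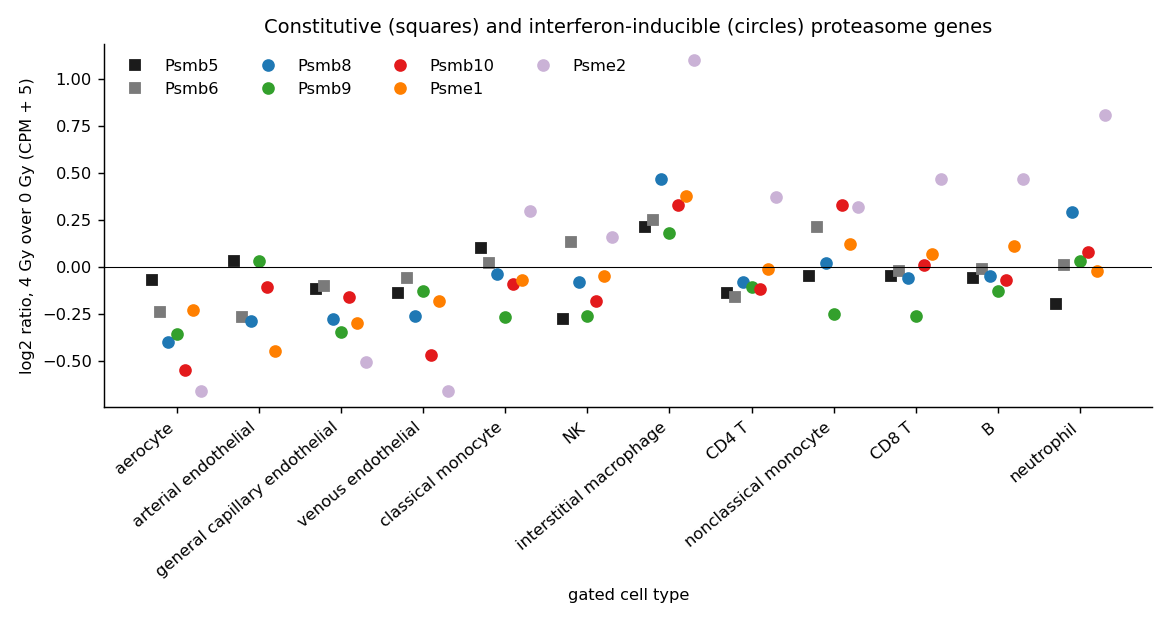
The log2 ratio, 4 Gy over 0 Gy on CPM + 5 (y axis), of Psmb5 and Psmb6 (squares) and of Psmb8, Psmb9, Psmb10, Psme1 and Psme2 (circles) in each gated cell type (x axis), where measured. Psme2 is at -0.66 in aerocytes and at 1.1 in interstitial macrophages.

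Psme1 and Psme2 encode the PA28 cap, an interferon-inducible activator that opens the core without the 19S particle. Psme2 had 35.8 CPM at 4 Gy and 59.4 CPM at 0 Gy in aerocytes (0.603, 0.414 to 0.868) and 42.1 CPM at 4 Gy and 62.1 CPM at 0 Gy in general capillary cells (0.678, 0.581 to 0.790). In B cells, CD8 T cells and interstitial macrophages it was higher at 4 Gy, with 63.8 CPM at 4 Gy and 44.6 CPM at 0 Gy in B cells (a ratio of 1.43, with an interval above 1), 107 CPM at 4 Gy and 76.2 CPM at 0 Gy in CD8 T cells (1.41, 1.18 to 1.69) and 134 CPM at 4 Gy and 59.9 CPM at 0 Gy in interstitial macrophages (2.24, 1.65 to 3.07). The gene has a near-identical copy, Psme2b, so its counts are uncertain. Psme1 gave a ratio of 0.808 (0.757 to 0.862) in general capillary cells and 1.08 (1.01 to 1.15) in B cells. In aerocytes it was 0.850 (0.716 to 1.01), in arterial cells 0.729 (0.572 to 0.927) and in venous cells 0.880 (0.689 to 1.12).

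Of 5 activators and inhibitors of the core, 0 were at least 25% higher and 1 at least 20% lower in aerocytes, where 16.7% and 11.2% of all genes were. In general capillary cells the counts were again 0 and 1 of 5, where 10.4% and 6.20% of all genes were. In B cells 1 was higher and 0 were lower (10.00% and 3.76% of all genes), and in CD8 T cells 2 were higher and 0 lower (11.9% and 9.02%). Of 13 further proteasome parts and partners, 3 were higher and 1 lower in aerocytes, 0 and 0 in general capillary cells, 2 and 0 in B cells and 0 and 1 in CD8 T cells. These lists hold few genes, and their counts are given as a description beside the same shares of all genes. Pomp, the maturation factor of the core, had 323 CPM at 4 Gy and 343 CPM at 0 Gy in general capillary cells (0.941, 0.888 to 0.997) and 392 CPM at 4 Gy and 274 CPM at 0 Gy in interstitial macrophages (1.43, 1.24 to 1.66). Ube3c, a ubiquitin ligase that works on the proteasome, had 46.7 CPM at 4 Gy and 21.3 CPM at 0 Gy in aerocytes (2.19, 1.41 to 3.46). The macrophage ratio of Pomp was on the same side of 1 as that of the core genes.

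Of 6 genes that regulate proteasome transcription or process its regulators, 0 passed either threshold in aerocytes or general capillary cells, and 1 was higher and 0 lower in B and in CD8 T cells. Over all genes in these types the share past one of the thresholds lay between 3.76% and 16.7%, and the count of 6 genes is a description. Nfe2l1 had 96.7 CPM at 4 Gy and 111 CPM at 0 Gy in general capillary cells (0.870, 0.783 to 0.966), 71.7 CPM at 4 Gy and 58.1 CPM at 0 Gy in aerocytes (1.23, 0.912 to 1.67), 35.1 CPM at 4 Gy and 29.1 CPM at 0 Gy in B cells (1.21, 1.01 to 1.44) and 25.8 CPM at 4 Gy and 15.8 CPM at 0 Gy in CD8 T cells (1.63, 1.12 to 2.44). NRF1 is governed mainly at the protein, which was not measured.

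In tumour epithelial cells the summed ratio was 0.986 (0.916 to 1.06). Psmb5 had 263 CPM at 4 Gy and 308 CPM at 0 Gy (0.854, 0.551 to 1.29), Psmb6 377 CPM at 4 Gy and 469 CPM at 0 Gy (0.804, 0.562 to 1.13) and Psmd14 193 CPM at 4 Gy and 172 CPM at 0 Gy (1.12, 0.658 to 1.85). Each of these intervals held 1, and with 38 cells at 4 Gy a difference of such a size was not detectable. Of the interferon-inducible genes, Psmb10 had 368 CPM at 4 Gy and 701 CPM at 0 Gy in these cells (0.526, 0.370 to 0.730). Psmb8 had 675 CPM at 4 Gy and 736 CPM at 0 Gy (0.917, 0.702 to 1.19), and Psmb9 had 342 CPM at 4 Gy and 387 CPM at 0 Gy (0.883, 0.603 to 1.27), both with intervals that held 1.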

How the data were processed

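For each library the authors deposited log2 values in a table of cells and genes. The submitters' processing notes name STAR, Partek, Seurat and mm10, and the steps they served are not given in the sources used here. In each cell the deposited log2 values turned back to a linear scale summed to 1000000 within rounding, so they were read as log2(CPM + 1), and 99.9994% to 99.9996% of values were whole UMIs within a tolerance of 0.02. Counts were recovered from that step. Libraries held 12448164 (4 Gy) and 14885765 (0 Gy) UMIs in CD45-negative and 36423571 (4 Gy) and 24045901 (0 Gy) UMIs in CD45-positive cells. Libraries shared 3 to 17 barcodes. All barcodes had at least 200 genes and at most 20% mitochondrial UMIs.

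Doublets were scored with Scrublet in scanpy 1.11.5. Its threshold worked in the CD45-positive library at 4 Gy (608 removed). In the other three, where it marked under 0.5%, the highest scores up to 0.8% per 1000 cells were removed (149 at 4 Gy, 286 and 235 at 0 Gy). A cell entered a type with at least 3 of its markers (2 for T, tumour and arterial cells) at most 1 or 2 markers of other lineages, and at least 3 pan-endothelial markers for endothelium or 2 pan-leukocyte markers for leukocytes. The CD8 T gate also needed Cd8a or Cd8b1, and the CD4 T gate Cd4, Cd40lg or Foxp3. A cell that met the gate of another endothelial type was not counted as general capillary. Other cells in several gates went to the one whose share of markers seen was ahead by at least 0.2, or to none. The members and lists were chosen with earlier results of these data known, and gate settings after the data were seen.

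UMIs were summed per type and library with Python 3.11.15, numpy 2.4.6, scipy 1.17.1 and pandas 2.3.3. Ratios carry the exact conditional binomial interval and levels the exact Poisson one, at 95%. No test was made, since each dose and fraction has 1 library of pooled mice. Genes were named by a rule: Psmb5, Psmb6, Psmb7 and Psmd14 throughout, the 4 highest and 4 lowest members in the 2 largest types of each fraction, elsewhere members past 1.5-fold whose interval left out 1, and of the other lists Psmb8, Psmb9, Psmb10, Nfe2l1, Pomp and genes past 1.5-fold in those largest types. The list of ubiquitin genes is not reported here. Alternatives in scaling, pseudocount, minimum count, thinning, doublets, gates and members were run.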

Additional observations from a re-analysis of the deposited data

Results flagged for a closer look

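Leukocyte types of the same libraries stood on opposite sides of a ratio of 1 in the summed proteasome level, with intervals of counting error that left out 1. The ratio, 4 Gy over 0 Gy, was 1.11 in interstitial macrophages and 1.08 in neutrophils, and it was 0.939 in CD4 T cells and 0.937 in NK cells. The difference between types was not tested, since each dose had 1 CD45-positive library. The neutrophil value was 0.948 in cells named by clustering.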

How the results depend on the processing

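No paired analysis was possible because each dose and fraction had 1 library and the comparison used no test. Of the summed ratios whose interval left out 1, only that of neutrophils crossed to the other side of 1, at 1.08 by markers and 0.948 by clusters, and the cause was not tested. Neutrophils were at 1.17 as a mean over cells and 1.16 when cells were thinned to 1000 UMIs. B cells, reported at 1.01, were at 0.962 with median-of-ratios scaling, 0.967 as a mean over cells, 0.958 when thinned and 0.984 without cells holding a Mki67 or Top2a UMI. Median-of-ratios scaling gave 0.934 in general capillary cells (0.908 for the 20S core, 0.974 for the 19S particle) and 0.896 in NK cells. Thinning gave 0.956 in CD8 T and 0.902 in CD4 T cells, and clusters gave 1.05 in venous cells. Over all alternatives aerocytes kept between 0.901 and 0.926 and interstitial macrophages between 1.09 and 1.14. Counts of members at least 25% higher or 20% lower, summed over types, depended on low counts. Higher ones numbered 6 in CD45-negative types (2 with a pseudocount of 50 CPM, 2 with at least 200 UMIs) and 19 in CD45-positive types (2 and 10). Lower ones numbered 14 in CD45-negative types (6, 1, and 5 when thinned) and 16 in CD45-positive types (1 and 2, but 25 with at least 10 UMIs and 31 with no minimum). For the summed levels of all members and these counts, 128 values stayed within their interval or within 1.5 times the count, 22 moved and 1 changed direction, and for the 20S core and 19S particle 30 stayed and 2 moved. Clusters did not separate CD4 from CD8 T cells, and a stricter arterial gate left under 50 cells, so these 2 alternatives gave no value. The alternatives by Mki67 and Top2a, by Lyve1 and without Psmb6-ps2 and Psmc3ip, and those of the 20S core and 19S particle, were added after seeing the data.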
